A study of Sus scrofa with 16 samples.

Results

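IVF cells at day 28 of differentiation were compared with IVF cells at day 16 across all expressed genes. IVF cells are 1 porcine embryonic stem cell line, listed as IVF_1_ pESC_FIW and derived from an embryo fertilised in vitro. The comparison uses the 4 libraries that the labels assign to these groups, 2 at day 28 and 2 at day 16, of 16 bulk RNA-seq libraries in the series. The other libraries are IVF cells at days 0 and 45 and a line from a parthenogenetically activated embryo (PA cells) on the same 4 days, 2 libraries each. All groups after day 0 had been directed towards midbrain dopaminergic neurons with SB431542 and Noggin, which inhibit activin and BMP signalling, with SHH, and with CHIR99021, which activates WNT signalling. FGF8 followed, and then FGF8 together with BDNF and ascorbic acid until day 16. From day 16 the day 28 cells were grown on poly-L-ornithine, laminin and fibronectin with BDNF, GDNF, ascorbic acid, dibutyryl cyclic AMP and DAPT, a gamma-secretase inhibitor that blocks Notch cleavage. Time, replating and the change of medium moved together between the groups and cannot be told apart. Each group is 1 line and the series calls its 2 libraries biological duplicates, but no source says that they came from separate cultures. The p-values rest on the spread between libraries of the same group, estimated over all 16 libraries, and may not cover the spread between cultures.

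In the embryo, dopaminergic neurons of the midbrain come from floor plate progenitors that express FOXA2, LMX1A and OTX2. Progenitors are held in division by Notch signalling, leave the cell cycle through transcription factors of the NEUROG and ASCL families, and then build axons, synapses and ion channels. Tyrosine hydroxylase (TH) and DOPA decarboxylase (DDC) make dopamine, and the transporter SLC6A3 takes it back up.

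The 4 libraries held 47938859 and 46286814 gene counts at day 28, against 46220784 and 46242565 at day 16, within the range of the series (39247693 to 52165867). Levels are given as CPM, counts per 1000000 counts after TMM scaling, which corrects for differences in library composition. A total of 3 counts in a library corresponds to 0.0626 to 0.0649 CPM. CPM are not divided by gene length, so levels are compared between libraries and not between genes. Mitochondrial genes took 3.71% ± 0.18 of counts at day 28 and 3.68% ± 0.10 at day 16 (SD, n = 2 each). The bulk measurement cannot tell fewer cells of a type apart from less RNA per cell.

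Of 18528 genes tested, 1871 rose and 2148 fell at day 28 relative to day 16, that is 10.1% and 11.6%, or 21.7% in either direction. A gene was called when edgeR's quasi-likelihood F test gave a Benjamini-Hochberg adjusted p below 0.05 over all tested genes and the change was at least 2-fold. The median log2 fold change of all tested genes was 0.00. At a minimum change of 4-fold, 841 genes had risen and 902 had fallen, and at 16-fold 308 and 237. Protein-coding genes gave 1650 of the rises and 1826 of the falls among 15881 tested, and long noncoding RNAs gave 200 and 289 among 2275. Of the genes that rose, 180 had no count in either day 16 library, and 165 of those that fell had none in either day 28 library. Libraries of the 2 days did not overlap for 76.9% of all tested genes (37.7% higher and 39.2% lower at day 28), and 8 called genes had libraries that overlapped.

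**Figure D1:**
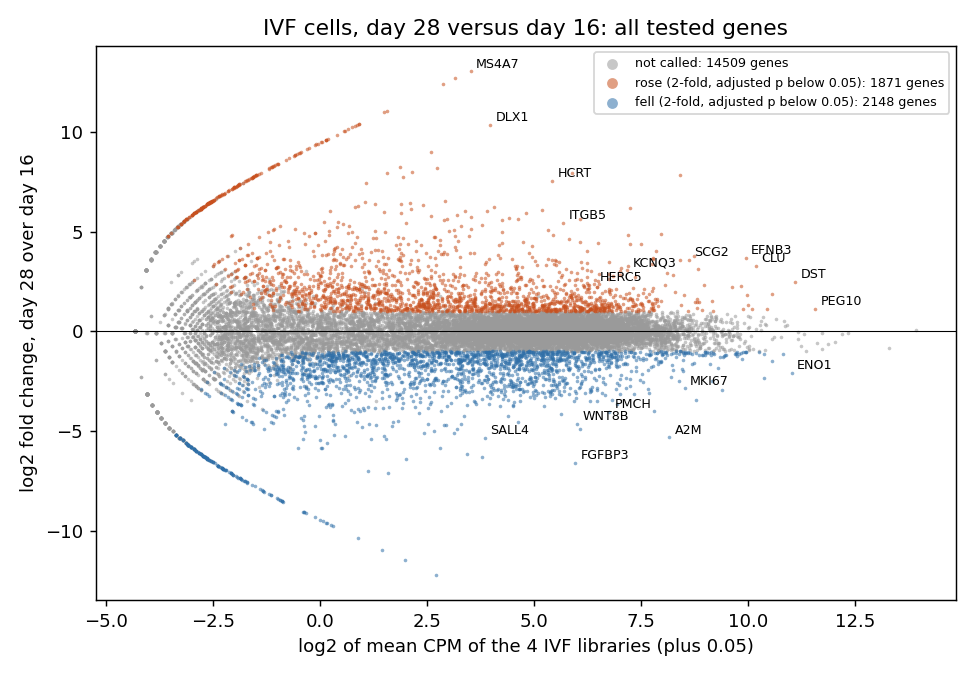
Log2 fold change of day 28 over day 16 in IVF cells (vertical axis) against log2 of the mean CPM of the 4 IVF libraries plus 0.05 (horizontal axis), 1 point per tested gene, with genes that rose, fell or were not called in different colours. The 1871 genes that rose and the 2148 that fell spread over the whole range of levels. The 14509 genes not called lacked a 2-fold change or an adjusted p below 0.05. Some of them at low levels lie far from 0, such as EOMES (5.26) and GSX2 (-5.33).

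In gene groups, the day 28 cells had less of the RNAs for cell division, several Notch targets, glycolysis and ribosomal proteins. They had more of those for glutamate and GABA receptors, several neuropeptides, interferon effectors and neurotrophin receptors. Proneural and early neuronal genes fell more often than they rose, and the enzymes of dopamine synthesis were higher while dopaminergic transcription factors were not. Each group is described by its count of called genes and its median. Across 54 lists with 1129 genes found in the table, not all of them tested, 225 different genes rose and 270 fell. Over all tested genes 10.1% rose and 11.6% fell. The lists were written with earlier results of these data known, so a higher share in them is no separate evidence.

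**Figure D2:**
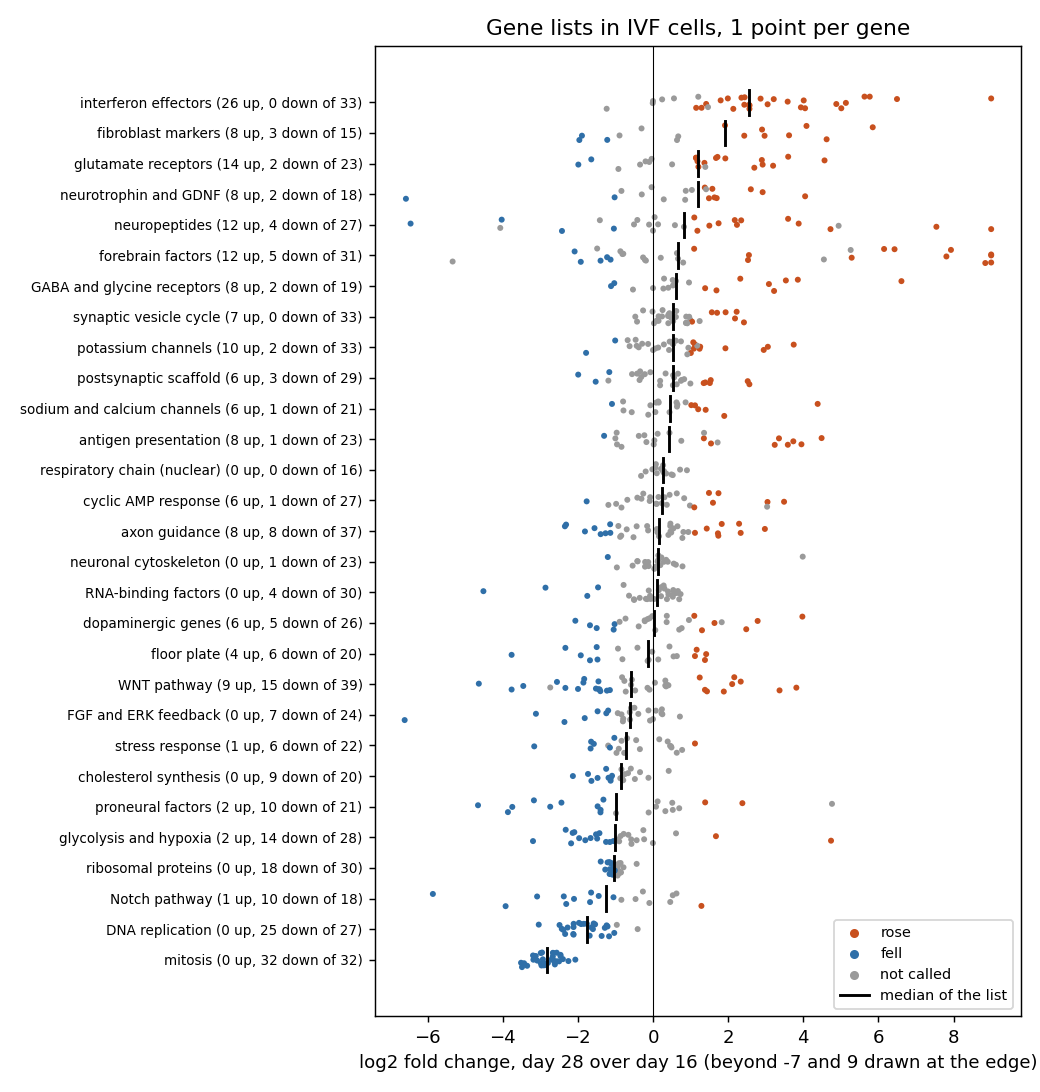
Log2 fold change of day 28 over day 16 in IVF cells for the tested members of 29 gene lists, 1 point per gene, with the median of each list as a bar. Mitosis genes lie lowest as a group (median -2.83), interferon effectors highest (2.56).

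Cell division genes were lower at day 28 without exception in the mitosis list. All 32 mitosis and cytokinesis genes fell (median -2.83), as did 25 of 27 genes of DNA replication (median -1.76), and none of either list rose. MKI67, a nuclear protein of cycling cells (chromosome 14, 137266622 to 137296312 in the Sscrofa11.1 build), had 92.8 and 85.9 CPM at day 28, against 675 and 619 at day 16 (log2 fold change -2.86 ± 0.28, adjusted p = 1.66e-06). Both day 28 libraries lay far below both at day 16. PRC1, which bundles microtubules in the dividing cell (chromosome 7, 55869749 to 55900640), had 19.5 and 17.98 CPM at day 28, against 118 and 119 at day 16 (log2 fold change -2.66 ± 0.13, adjusted p = 4.19e-09). MAD2L1 of the spindle checkpoint had 14.2 and 16.7 CPM at day 28, against 87.6 and 102 at day 16 (log2 fold change -2.62 ± 0.13, adjusted p = 4.35e-09). The replication helicase subunit MCM6 fell to 63.2 and 63.3 CPM at day 28, against 245 and 251 CPM at day 16, and the clamp PCNA to 35.7 and 36.4 against 129 and 143 CPM. The 2 replication genes not called were RRM1 (log2 fold change -0.96), of ribonucleotide reductase, and RFC3 (-0.41), of the clamp loader. Without the first day 16 library RRM1 fell by 1.00 and was called. Cells at day 28 still had mitosis RNA: the summed level of the 32 genes was 656 and 649 CPM at day 28, against 4789.6 and 4919 CPM at day 16.

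Promoters of 2 of these genes are shown because many mitosis genes are known to carry a CHR element, here searched as TTTGAA on both strands, printed in capitals. They were picked as the called mitosis genes with the smallest adjusted p whose promoter held the letters. Each window runs from 250 bases before to 50 bases after the annotated RefSeq start, in the direction of the gene (Sscrofa11.1, PRC1 chr7:55869499-55869798, plus strand, MAD2L1 chr8:103927108-103927407, plus strand). The letters occurred in 16 of 32 mitosis promoters (50%), against 12.5% of 18498 promoters of tested genes, and in 15.2% of the promoters of genes that fell and 12% of those that rose. A match is a match of letters and not a measured site.
PRC1: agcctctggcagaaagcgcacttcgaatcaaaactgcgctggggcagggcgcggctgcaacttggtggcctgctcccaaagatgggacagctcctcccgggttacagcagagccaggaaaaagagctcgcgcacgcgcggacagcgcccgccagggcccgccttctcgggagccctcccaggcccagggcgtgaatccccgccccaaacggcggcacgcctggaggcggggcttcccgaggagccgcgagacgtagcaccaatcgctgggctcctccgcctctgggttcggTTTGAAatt
MAD2L1: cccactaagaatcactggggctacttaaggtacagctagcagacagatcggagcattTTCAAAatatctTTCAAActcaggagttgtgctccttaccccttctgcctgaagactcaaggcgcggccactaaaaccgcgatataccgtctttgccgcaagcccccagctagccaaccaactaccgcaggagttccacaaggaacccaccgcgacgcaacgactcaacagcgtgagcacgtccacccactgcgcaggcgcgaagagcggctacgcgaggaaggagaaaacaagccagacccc

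In a list of cell cycle inhibitors and D-type cyclins, 3 of 14 tested genes fell and none rose (median -0.22). Over all tested genes 11.6% fell and 10.1% rose. Cyclin D1 (CCND1), which drives entry into the cycle, had 26.6 and 30.1 CPM at day 28, against 221 and 208 at day 16 (log2 fold change -2.92 ± 0.11, adjusted p = 4.69e-10), with both day 28 libraries far below day 16. The inhibitor CDKN1A had 33.9 and 25.6 CPM at day 28, against 87.5 and 70.003 at day 16 (log2 fold change -1.40 ± 0.24, adjusted p = 2.72e-04) and CDKN2C 4.54 and 4.57 CPM at day 28, against 14.4 and 16.5 at day 16 (log2 fold change -1.76 ± 0.41, adjusted p = 0.00258). The inhibitors BTG1, CCNG2 and RBL2 had log2 fold changes of -0.27, -0.11 and 0.04 and were not called.

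Progenitor genes fell only in part, and several Notch targets fell while HES1 did not. Of 17 progenitor and radial glia genes, 4 fell and 1 rose (median -0.29). The growth regulators HMGA2 and LIN28B fell to 3.88 and 2.98 and to 2.81 and 4.12 CPM at day 28, against 33.7 and 30.96 and 29.6 and 20.7 CPM at day 16, and SOX3 fell to 0.772 and 0.897 against 5.26 and 4.96 CPM. RFX4, a transcription factor of the ventral neural tube, rose: 878 and 794 CPM at day 28, against 168 and 166 at day 16 (log2 fold change 2.32 ± 0.16, adjusted p = 9.04e-08). The intermediate filaments nestin (NES) and vimentin (VIM) had log2 fold changes of -0.58 and -0.91 and were not called, although VIM was called without the first day 28 library (-1.08) or the first day 16 library (-1.01). PAX6 was low on both days (2.91 and 3.302 CPM at day 28, against 3.61 and 3.98 at day 16, log2 fold change -0.29 ± 0.42, adjusted p = 0.606).

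Of 18 Notch ligands, receptors and targets, 10 fell and 1 rose (median -1.25). The effector HEY1 had 20.4 and 23.01 CPM at day 28, against 110.5 and 105 at day 16 (log2 fold change -2.31 ± 0.13, adjusted p = 1.66e-08). HES4 had 13.3 and 17.5 CPM at day 28, against 125 and 136 at day 16 (log2 fold change -3.08 ± 0.16, adjusted p = 7.92e-09). Neither gene had a day 28 library near its day 16 libraries. The target HES5 had the largest fall of the list, to 0.178 and 0.285 CPM at day 28, against 11.3 and 15.9 CPM at day 16. Its log2 fold change was -5.86 ± 0.41 (adjusted p = 9.86e-08). The target HES1 was not called (31.4 and 28.8 CPM at day 28, against 31.4 and 33.02 at day 16, log2 fold change -0.10 ± 0.19, adjusted p = 0.710). HES6 and LFNG were not called either (log2 fold changes -0.27 and -0.84). The ligand JAG1 fell to 42.2 and 40.8 CPM at day 28, against 233 and 198 CPM at day 16. The receptors NOTCH2 (0.53 ± 0.15) and NOTCH3 (0.62 ± 0.17) and the cofactor RBPJ (0.46 ± 0.10) had positive log2 fold changes under 2-fold (± SE). DTX1, a ubiquitin ligase of the pathway, rose (77.2 and 71.4 CPM at day 28, against 30.4 and 30.4 at day 16, log2 fold change 1.29 ± 0.14, adjusted p = 4.84e-06).

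Among proneural and early neuronal genes falls outnumbered rises. Of 21 tested, 10 fell and 2 rose (median -0.98). Proneural factors were among the falls. NEUROG2 (chromosome 8, 110200681 to 110206081) had 9.57 and 13.2 CPM at day 28, against 89.9 and 115 at day 16 (log2 fold change -3.17 ± 0.30, adjusted p = 1.44e-06). NEUROD4 had 1.84 and 3.28 CPM at day 28, against 34.04 and 34.7 at day 16 (log2 fold change -3.75 ± 0.38, adjusted p = 2.22e-06). NEUROG1 had 0.356 and 0.5096 CPM at day 28, against 10.4 and 11.5 at day 16 (log2 fold change -4.66 ± 0.42, adjusted p = 2.65e-06). Day 28 libraries were the lower pair for all 3. The genes that rose were MYT1L, a factor that keeps neuronal identity (30.5 and 44.3 CPM at day 28, against 14.3 and 14.2 at day 16, log2 fold change 1.39 ± 0.24, adjusted p = 2.63e-04), and BHLHE22 (5.31 and 3.995 CPM at day 28, against 0.912 and 0.873 at day 16, log2 fold change 2.38 ± 0.35, adjusted p = 6.70e-05). Markers of young neurons were not called. Doublecortin (DCX) had 471 and 674 CPM at day 28, against 539 and 512 at day 16 (log2 fold change 0.12 ± 0.18, adjusted p = 0.614). STMN2 had 535 and 767 CPM at day 28, against 663 and 749 at day 16 (log2 fold change -0.12 ± 0.17, adjusted p = 0.607). Their libraries overlapped between the days. ELAVL3 had 211 and 267 CPM at day 28, against 149 and 145 at day 16 (log2 fold change 0.70 ± 0.17, adjusted p = 0.00456). At day 28 the second library lay above the first for 20 of the 21 genes, by a median of 0.44 on the log2 scale. Without the first day 28 library the list median was -0.06, and without the second -1.60, while 10 genes fell in both cases.

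Floor plate and ventral midbrain genes moved in both directions, and the dopaminergic factors fell or were not called. Of 20 floor plate genes tested, 6 fell and 4 rose (median -0.13). WNT5A rose (255 and 265 CPM at day 28, against 92.6 and 107 at day 16, log2 fold change 1.38 ± 0.17, adjusted p = 1.35e-05). FERD3L, a floor plate transcription factor, rose as well (637 and 606 CPM at day 28, against 261 and 294 at day 16, log2 fold change 1.16 ± 0.20, adjusted p = 2.74e-04). The guidance cue netrin-1 (NTN1) rose to 1434 and 1160.2 CPM at day 28, against 614 and 583 CPM at day 16, a log2 fold change of 1.12 that was 0.96 and below the 2-fold minimum without the first day 28 library. WNT1, which maintains the midbrain field, fell: 3.27 and 2.98 CPM at day 28, against 47.2 and 37.6 at day 16 (log2 fold change -3.76 ± 0.24, adjusted p = 7.04e-08). LMX1B, needed for midbrain dopaminergic progenitors, had 13.6 and 13.4 CPM at day 28, against 40.5 and 45.8 at day 16 (log2 fold change -1.68 ± 0.22, adjusted p = 2.37e-05). RSPO2, a WNT potentiator, had 10.6 and 9.499 CPM at day 28, against 54.2 and 47.2 at day 16 (log2 fold change -2.33 ± 0.31, adjusted p = 2.62e-05). OTX2 fell to 124 and 124 CPM at day 28, against 353 and 350 CPM at day 16. Its log2 fold change was -1.50 ± 0.21 (adjusted p = 5.67e-05). LMX1A had 87.6 and 87.04 CPM at day 28, against 157 and 176 at day 16 (log2 fold change -0.93 ± 0.21, adjusted p = 0.00193) and was not called, but it was past the 2-fold minimum at -1.01 without the first day 16 library. FOXA2 had 76.7 and 72.97 CPM at day 28, against 78.2 and 86.9 at day 16 (log2 fold change -0.14 ± 0.30, adjusted p = 0.732). CORIN had 217 and 205 CPM at day 28, against 244 and 213 at day 16 (log2 fold change -0.12 ± 0.21, adjusted p = 0.688). EN1 had 1.23 and 1.26 CPM at day 28, against 1.68 and 0.852 at day 16 (log2 fold change -0.02 ± 0.68, adjusted p = 1.00). None of these 3 was called, and EN1 was near 1 CPM on both days.

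Dopamine synthesis and handling gave 6 rises and 5 falls among 26 genes (median 0.02). TH (chromosome 2, 1499628 to 1506180) had 24.1 and 25.1 CPM at day 28, against 4.602 and 4.19 at day 16 (log2 fold change 2.48 ± 0.15, adjusted p = 1.11e-07). DDC had 59.3 and 60.4 CPM at day 28, against 8.95 and 8.41 at day 16 (log2 fold change 2.78 ± 0.30, adjusted p = 3.93e-06). Both day 28 libraries were several times the day 16 level for both enzymes. RET, the GDNF receptor kinase, had 10.8 and 10.9 CPM at day 28, against 3.48 and 3.51 at day 16 (log2 fold change 1.64 ± 0.16, adjusted p = 2.00e-06). The dopamine receptor DRD2 fell (9.45 and 10.2 CPM at day 28, against 21.1 and 19.4 at day 16, log2 fold change -1.05 ± 0.12, adjusted p = 7.09e-06), with -0.98 and no call without the first day 16 library, and no call without the first day 28 library or with total-count scaling. GFRA1, the GDNF coreceptor, fell by 1.02 on the log2 scale, with -0.96 and no call without the first day 28 library, and no call with RLE or total-count scaling or under DESeq2. Leaving out the first day 28 library left 2 of the 5 falls. The labels call the cells of both days midbrain dopaminergic neurons, and the defining genes of mature ones were mixed. The vesicular monoamine transporter SLC18A2, which loads dopamine into vesicles and was added after its values were seen, rose (3.56 and 4.87 CPM at day 28, against 0.339 and 0.192 at day 16, log2 fold change 3.98 ± 0.47, adjusted p = 1.51e-05), although its level stayed under 5 CPM. Others fell, were low or were not called. PITX3 fell to 0.456 and 0.489 CPM at day 28, against 1.65 and 2.32 CPM at day 16. Its log2 fold change was -2.07 ± 0.52 (adjusted p = 0.00632). The transporter SLC6A3 had 1.56 and 1.39 CPM at day 28, against 1.99 and 1.45 at day 16 (log2 fold change -0.22 ± 0.30, adjusted p = 0.578), and calbindin (CALB1) had 0.416 and 0.428 CPM at day 28, against 0.1697 and 0.0639 at day 16 (log2 fold change 1.83 ± 1.27, adjusted p = 0.265). Both were low on both days. The potassium channel KCNJ6 (GIRK2) had 20.3 and 28.8 CPM at day 28, against 32.5 and 31.4 at day 16 (log2 fold change -0.38 ± 0.22, adjusted p = 0.181). NR4A2 (NURR1) had 48.8 and 58.3 CPM at day 28, against 38.8 and 44.2 at day 16 (log2 fold change 0.37 ± 0.19, adjusted p = 0.136). Neither of these 2 genes was called.

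Among genes of other brain regions, forebrain and ventral forebrain factors gave 12 rises and 5 falls of 31 tested (median 0.67, or 0.64 with members near 0 counts set at their bound). The summed level of the list was lower, with 455 and 536 CPM at day 28, against 657 and 658 CPM at day 16. The DLX factors mark GABAergic precursors of the ventral forebrain. DLX2 had 7.902 and 9.03 CPM at day 28, against 0.0848 and 0.106 at day 16 (log2 fold change 6.43 ± 0.53, adjusted p = 3.91e-07). DLX5 had 5.05 and 6.62 CPM at day 28, against 0.0424 and 0 CPM at day 16, that is 274-fold (95% counting interval 75.6 to 2269), with its day 16 counts in 1 library. LHX8 had 3.05 and 3.87 CPM against no count, at least 54.3-fold higher. LHX6, of migrating interneurons, was at least 30.2-fold higher (1.53 and 2.32 CPM against 0). All 4 were near absent at day 16 in both libraries. Among the falls, SIM1, a hypothalamic factor, fell (18.2 and 24.8 CPM at day 28, against 87.4 and 75.7 at day 16, log2 fold change -1.92 ± 0.21, adjusted p = 5.02e-06), and so did SIX3 (2.24 and 2.43 CPM at day 28, against 5.28 and 5.599 at day 16, log2 fold change -1.22 ± 0.28, adjusted p = 0.00280). Replicates mattered here: at day 28 the second library was above the first for 26 of 31 genes, and the median was 1.07 without the first and 0.00 without the second. Under DESeq2 with the study's rule, which tests only genes counted in every library of the series, 1 forebrain gene rose.

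Of 16 midbrain, isthmus and caudal boundary genes, 5 fell and none rose (median -0.23). BARHL2 fell to 0.475 and 0.285 CPM at day 28, against 12.3 and 12.2 CPM at day 16 (log2 fold change -4.99 ± 0.39, adjusted p = 7.20e-07). Of these 5 falls, 3 were left without either day 28 library and 2 without the first day 16 library. Of 8 hindbrain genes, 1 fell and none rose.

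**Figure D3:**
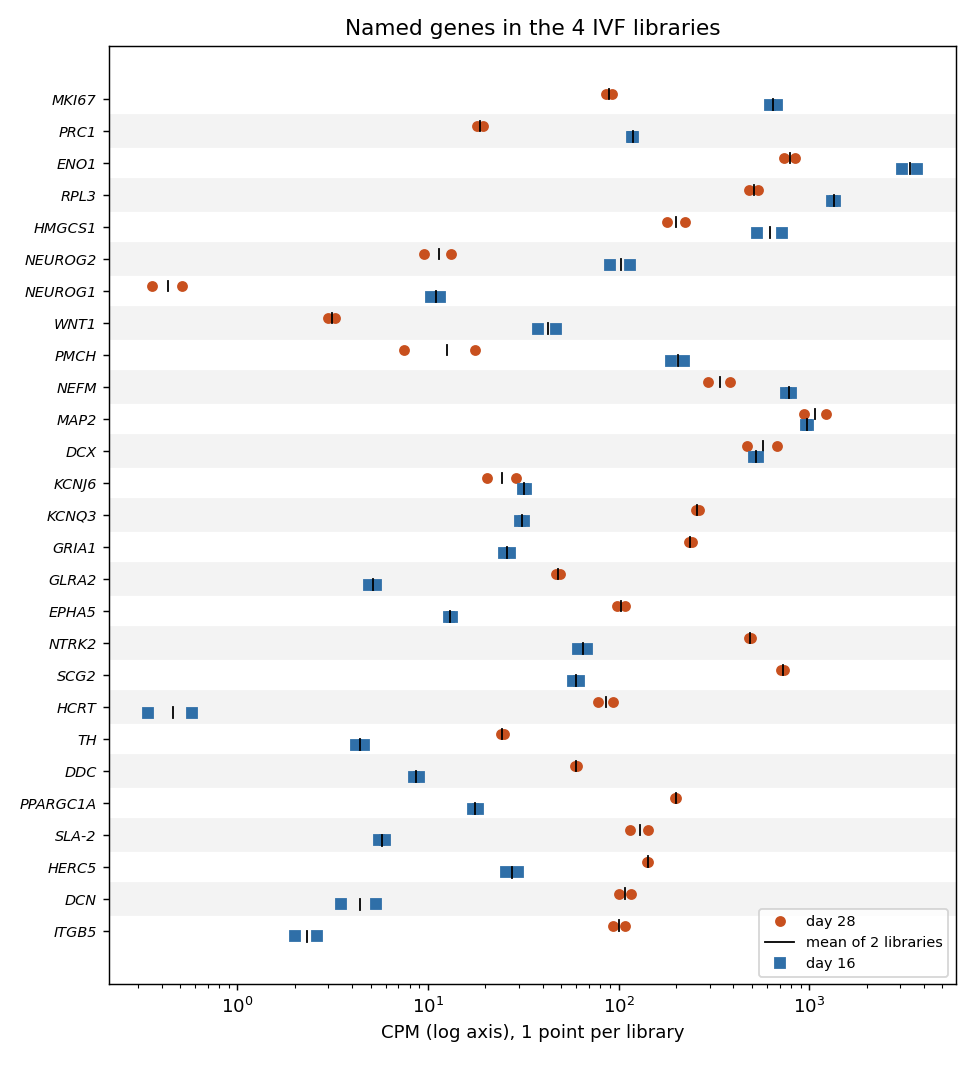
CPM on a log axis of 27 genes in the 4 IVF libraries, circles for the 2 day 28 libraries above squares for the 2 day 16 libraries. MKI67, ENO1 and WNT1 lie lower at day 28, NTRK2, HCRT and SCG2 higher, and the libraries of DCX overlap.

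Transmitter genes of several neuron types changed. Of 12 GABA and glutamate genes, 3 rose and 1 fell (median 0.47). GAD1, which makes GABA, had 36.8 and 45.7 CPM at day 28, against 7.44 and 10.1 at day 16 (log2 fold change 2.23 ± 0.34, adjusted p = 1.08e-04). The vesicular glutamate transporter SLC17A7 fell (0.356 and 0.612 CPM at day 28, against 8.08 and 5.897 at day 16, log2 fold change -3.85 ± 0.24, adjusted p = 3.23e-08). SLC17A6, the main one of the midbrain, had 47.4 and 69.4 CPM at day 28, against 80.4 and 93.4 at day 16 (log2 fold change -0.57 ± 0.19, adjusted p = 0.0223) and was not called. SLC1A1, a glutamate uptake carrier, had a log2 fold change of 1.01, and its call was lost without the second day 28 library (0.64) or the first day 16 library (0.99) and with the replicate block. Of 11 serotonergic, noradrenergic and cholinergic genes, 5 rose and 1 fell (median 1.47). TPH2, which makes serotonin in neurons, had 4.12 and 6.81 CPM at day 28, against 0.106 and 0.0639 at day 16 (log2 fold change 5.96 ± 0.54, adjusted p = 1.41e-06). The serotonin transporter SLC6A4 had 12.4 and 15.5 CPM at day 28, against 5.13 and 4.92 at day 16 (log2 fold change 1.47 ± 0.31, adjusted p = 0.00143). Dopamine beta-hydroxylase (DBH), of noradrenergic cells, fell to 1.33 and 1.08 CPM at day 28, against 4.05 and 4.64 CPM at day 16.

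Several neuropeptide genes and a granin were among the strongest rises. Of 27 tested, 12 rose and 4 fell (median 0.82, or 0.58 with members near 0 counts set at their bound). The granin SCG2 (chromosome 15, 125420773 to 125426303) had 712 and 738 CPM at day 28, against 62.2 and 57.8 at day 16 (log2 fold change 3.60 ± 0.16, adjusted p = 2.27e-09). Hypocretin (HCRT), an arousal peptide of the hypothalamus (chromosome 12, 20588597 to 20589991), had 93.5 and 77.8 CPM at day 28, against 0.339 and 0.575 at day 16 (log2 fold change 7.54 ± 0.50, adjusted p = 1.04e-07). The tachykinin TAC3 had 15.4 and 20.9 CPM at day 28, against 3.82 and 3.896 at day 16 (log2 fold change 2.23 ± 0.17, adjusted p = 1.73e-07). In each case both day 28 libraries were well above both at day 16. Melanin-concentrating hormone (PMCH), another hypothalamic peptide, fell: 7.51 and 17.6 CPM at day 28, against 221 and 189 at day 16 (log2 fold change -4.03 ± 0.48, adjusted p = 2.54e-05). Its 2 day 28 libraries differed by more than 2-fold, and without the second the log2 fold change was -4.78. Neurotensin (NTS) fell to 3.43 and 4.87 CPM at day 28, against 21.6 and 22.9 CPM at day 16. Among other granins, chromogranin A (CHGA) had 213 and 184 CPM at day 28, against 113 and 112 at day 16 (log2 fold change 0.82 ± 0.13, adjusted p = 1.53e-04) and was not called. Chromogranin B (CHGB) fell (39.9 and 49.2 CPM at day 28, against 99.6 and 83.9 at day 16, log2 fold change -1.04 ± 0.23, adjusted p = 0.00182), a call that was lost without the first day 28 library, without the first day 16 library or with scaling by total counts.

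Synaptic vesicle genes were mostly slightly higher, and 7 of 33 rose while none fell (median 0.54). Complexin 1 (CPLX1), which clamps vesicle fusion, had 54.03 and 51.998 CPM at day 28, against 10.2 and 9.56 at day 16 (log2 fold change 2.42 ± 0.17, adjusted p = 1.00e-07). The calcium sensor SYT1 rose to 105 and 133 CPM at day 28, against 39.2 and 33.96 CPM at day 16, amphiphysin (AMPH) to 133 and 135 against 43.9 and 46.6 CPM, and synapsin 1 (SYN1) to 12.5 and 16.9 against 3.63 and 4.07 CPM. Synaptophysin (SYP) had 82.8 and 90.6 CPM at day 28, against 47.7 and 46.7 at day 16 (log2 fold change 0.88 ± 0.14, adjusted p = 1.27e-04), and VAMP2 414 and 396 CPM at day 28, against 287 and 323 at day 16 (log2 fold change 0.41 ± 0.16, adjusted p = 0.0443). Neither reached 2-fold. Their libraries did not overlap, which held for 76.9% of all tested genes. Without a minimum change, 21 of the 33 genes were higher at an adjusted p below 0.05.

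Of 29 postsynaptic and adhesion genes, 6 rose and 3 fell (median 0.53). The kinase CAMK2A had 66.98 and 58.5 CPM at day 28, against 11.4 and 9.81 at day 16 (log2 fold change 2.57 ± 0.18, adjusted p = 9.92e-08). The scaffold DLG2 had 78.9 and 82.5 CPM at day 28, against 15.2 and 12.9 at day 16 (log2 fold change 2.52 ± 0.19, adjusted p = 2.09e-07). SHANK1 rose to 43.4 and 45.4 CPM at day 28, against 19.1 and 15.8 CPM at day 16, and LRRTM2 to 46.8 and 59.2 against 16.99 and 20.1 CPM. DLG4 (PSD-95) had 98.8 and 99.6 CPM at day 28, against 90.3 and 83.8 at day 16 (log2 fold change 0.19 ± 0.11, adjusted p = 0.171) and was not called. SLITRK2 fell (129 and 123 CPM at day 28, against 345 and 382 at day 16, log2 fold change -1.53 ± 0.18, adjusted p = 8.87e-06), and so did neurogranin (NRGN), which was low on both days (0.574 and 0.469 CPM at day 28, against 1.97 and 2.19 at day 16, log2 fold change -1.99 ± 0.25, adjusted p = 2.04e-05).

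Receptors for glutamate were the neuronal group with the largest share of rises, 14 of 23, with 2 falls (median 1.21). The metabotropic receptor GRM5 (chromosome 9, 21914422 to 22438200) had 11.98 and 14.8 CPM at day 28, against 0.679 and 0.447 at day 16 (log2 fold change 4.57 ± 0.33, adjusted p = 1.11e-07). GRM7 had 77.1 and 81.1 CPM at day 28, against 25.8 and 23.7 at day 16 (log2 fold change 1.68 ± 0.12, adjusted p = 8.28e-08). The kainate receptor GRIK2 had 68.2 and 76.9 CPM at day 28, against 31.3 and 34.2 at day 16 (log2 fold change 1.15 ± 0.10, adjusted p = 5.19e-07). The day 16 libraries were the lower pair for all 3. GRM4 and the AMPA receptor auxiliary subunit CACNG3 fell (2.59 and 2.85 CPM at day 28, against 8.65 and 8.37 CPM at day 16, and 3.19 and 3.28 against 13.998 and 11.7 CPM). GRIA3 (17.7 and 23.7 CPM at day 28, against 21.8 and 22.5 at day 16, log2 fold change -0.10 ± 0.15, adjusted p = 0.618) and GRIK1 (110.4 and 116 CPM at day 28, against 135 and 152 at day 16, log2 fold change -0.34 ± 0.15, adjusted p = 0.0801) were not called.

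Among 19 receptors and carriers for GABA and glycine, 8 rose and 2 fell (median 0.61). The glycine receptor subunit GLRA2 had 46.8 and 49.1 CPM at day 28, against 5.37 and 4.897 at day 16 (log2 fold change 3.22 ± 0.23, adjusted p = 1.05e-07), and the GABA receptor subunit GABRA4 6.28 and 7.34 CPM at day 28, against 0.488 and 0.681 at day 16 (log2 fold change 3.54 ± 0.41, adjusted p = 7.42e-06). The chloride extruder SLC12A5 (KCC2) rose (42.05 and 56.2 CPM at day 28, against 15.2 and 15.3 at day 16, log2 fold change 1.69 ± 0.16, adjusted p = 1.08e-06), and the chloride importer SLC12A2 (NKCC1) fell (27.7 and 33.1 CPM at day 28, against 69.9 and 54.4 at day 16, log2 fold change -1.03 ± 0.20, adjusted p = 7.06e-04). The 2 falls, SLC12A2 and GLRA1, were both lost without the first day 28 library or without the first day 16 library and with total-count scaling. SLC12A2 was also lost with RLE scaling and under DESeq2, and GLRA1 without the second day 16 library. The second day 28 library was above the first for all 19 genes, by a median of 0.38 on the log2 scale.

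Ion channels gave more rises than falls. Of 33 potassium channel genes, 10 rose and 2 fell (median 0.54), and of 21 sodium and calcium channel genes 6 rose and 1 fell (median 0.44). KCNQ3, of the M-current that limits repeated firing (chromosome 4, 8669969 to 8978656), had 254 and 263 CPM at day 28, against 31.9 and 30.2 at day 16 (log2 fold change 3.06 ± 0.14, adjusted p = 3.81e-09). KCNIP4 had 17.4 and 18.6 CPM at day 28, against 1.3998 and 1.28 at day 16 (log2 fold change 3.74 ± 0.19, adjusted p = 4.82e-09). The leak channel KCNK2 had 20.6 and 23.5 CPM at day 28, against 2.61 and 3.11 at day 16 (log2 fold change 2.95 ± 0.25, adjusted p = 4.85e-07). All 3 had day 28 libraries several times those of day 16. KCND3 fell (46.7 and 50.6 CPM at day 28, against 149 and 185 at day 16, log2 fold change -1.78 ± 0.19, adjusted p = 3.56e-06). KCNN3 fell by 1.01 on the log2 scale, and lost its call without the first day 16 library (-0.81), with RLE or total-count scaling, under DESeq2 with either rule and in a fit of the 4 libraries alone. The sodium leak channel NALCN had 68.5 and 77.03 CPM at day 28, against 20.7 and 18.4 at day 16 (log2 fold change 1.90 ± 0.13, adjusted p = 9.92e-08), and the sodium channel subunit SCN4B 7.59 and 6.26 CPM at day 28, against 0.297 and 0.362 at day 16 (log2 fold change 4.38 ± 0.35, adjusted p = 2.92e-07). CACNA1D was the 1 fall among sodium and calcium channels (8.56 and 10.8 CPM at day 28, against 21.4 and 19.8 at day 16, log2 fold change -1.09 ± 0.17, adjusted p = 1.32e-04), and the call was lost without the first day 28 library (-0.93). Without the second day 28 library the median of that list was 0.03 and 2 genes fell.

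Axon guidance genes were evenly divided, and cytoskeletal genes did not rise. Of 37 guidance genes, 8 rose and 8 fell (median 0.16). The semaphorin receptor PLXNA4 had 77.3 and 97.3 CPM at day 28, against 17.2 and 17.5 at day 16 (log2 fold change 2.33 ± 0.18, adjusted p = 1.73e-07). The ephrin receptor EPHA5 had 98.5 and 108 CPM at day 28, against 12.8 and 13.4 at day 16 (log2 fold change 2.98 ± 0.22, adjusted p = 3.14e-07). The netrin receptor UNC5B had 17.3 and 15.8 CPM at day 28, against 3.37 and 3.39 at day 16 (log2 fold change 2.29 ± 0.20, adjusted p = 7.18e-07). Both day 28 libraries were above both day 16 libraries for these 3. SEMA3F fell (17.2 and 16.4 CPM at day 28, against 87.1 and 80.01 at day 16, log2 fold change -2.31 ± 0.13, adjusted p = 1.79e-08). EPHA3 fell (16.4 and 20.04 CPM at day 28, against 68.4 and 59.5 at day 16, log2 fold change -1.81 ± 0.17, adjusted p = 1.13e-06). ROBO1 fell (45.8 and 67.9 CPM at day 28, against 169 and 166 at day 16, log2 fold change -1.56 ± 0.18, adjusted p = 9.72e-06). The repellents SLIT1 and SLIT2 were not called (log2 fold changes 0.12 and -0.87). Of 23 cytoskeletal genes of neurons, none rose and 1 fell (median 0.12, or 0.08 with members near 0 counts set at their bound), namely the neurofilament NEFM (294 and 384 CPM at day 28, against 806 and 756 at day 16, log2 fold change -1.20 ± 0.19, adjusted p = 1.10e-04). MAP2 had 933 and 1222 CPM at day 28, against 989 and 962 at day 16 (log2 fold change 0.14 ± 0.15, adjusted p = 0.466). MAP1B had 1918 and 2211 CPM at day 28, against 1775 and 1605 at day 16 (log2 fold change 0.29 ± 0.13, adjusted p = 0.0876). The tubulins TUBA1A (-0.13 ± 0.10) and TUBB2B (-0.41 ± 0.15, log2 fold change ± SE) have near-identical copies and are uncertain. Without the second day 28 library, 2 genes of the list fell and its median was -0.07.

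Interferon effector genes rose together. Of 33 tested, 26 rose and none fell (median 2.56, or 2.44 with members near 0 counts set at their bound). HERC5, a ligase for the ubiquitin-like protein ISG15 (chromosome 8, 130532256 to 130591158), had 141 and 142 CPM at day 28, against 25.7 and 29.7 at day 16 (log2 fold change 2.35 ± 0.14, adjusted p = 1.66e-08). Its relative HERC6 had 29.2 and 30.9 CPM at day 28, against 5.09 and 5.13 at day 16 (log2 fold change 2.56 ± 0.15, adjusted p = 2.24e-08). The day 28 libraries were the higher pair for both. Members not called included OAS2 (19.5 and 20.7 CPM at day 28, against 13.5 and 13.8 at day 16, log2 fold change 0.56 ± 0.17, adjusted p = 0.0128) and OASL (0.614 and 0.612 CPM at day 28, against 1.803 and 1.09 at day 16, log2 fold change -1.23 ± 0.53, adjusted p = 0.0709). A fit of the 4 libraries alone or of the 8 IVF libraries called 1 fall in the list. Of 28 interferon ligands, receptors, sensors and signal transducers, 11 rose and 1 fell (median 0.76). The transcription factor IRF9 rose (85.2 and 80.8 CPM at day 28, against 17.96 and 21.7 at day 16, log2 fold change 2.07 ± 0.17, adjusted p = 4.06e-07). The RNA sensor DHX58 rose as well (38.7 and 34.4 CPM at day 28, against 6.81 and 8.94 at day 16, log2 fold change 2.21 ± 0.20, adjusted p = 7.05e-07). TRIM25 fell (0.139 and 0.143 CPM at day 28, against 2.04 and 1.94 at day 16, log2 fold change -3.79 ± 0.40, adjusted p = 3.75e-06). IFNB1 and IFNG had 0 counts in all 4 libraries, which allows up to 3 counts in each.

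Promoters of 4 interferon effectors are shown because genes of this group are known to be switched on through an ISRE. Its core GAAANNGAA was searched on both strands (TTCNNTTTC on the other) and is in capitals. The 4 were picked as the called effectors with the smallest adjusted p whose promoter held the core. Windows and build are as for PRC1: IFIT3 chr14:101214480-101214779, plus strand, HERC5 chr8:130591109-130591408, minus strand, IFI6 chr6:84858023-84858322, minus strand and LGALS3BP chr12:3212185-3212484, plus strand. The core occurred in 21 of 33 effector promoters (63.6%), against 7.1% of promoters of all tested genes, 8.29% of those of genes that rose and 7.73% of those of genes that fell. IFIT3 had 22.3 and 22.6 CPM at day 28, against 0.6999 and 0.575 at day 16 (log2 fold change 5.13 ± 0.23, adjusted p = 2.53e-09). LGALS3BP had 473 and 403 CPM at day 28, against 23.2 and 31.2 at day 16 (log2 fold change 4.01).
IFIT3: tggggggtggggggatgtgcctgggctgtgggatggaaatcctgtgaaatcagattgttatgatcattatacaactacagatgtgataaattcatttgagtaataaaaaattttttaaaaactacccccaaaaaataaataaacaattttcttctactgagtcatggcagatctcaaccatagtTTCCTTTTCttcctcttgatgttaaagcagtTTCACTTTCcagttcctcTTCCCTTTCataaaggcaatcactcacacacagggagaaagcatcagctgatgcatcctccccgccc
HERC5: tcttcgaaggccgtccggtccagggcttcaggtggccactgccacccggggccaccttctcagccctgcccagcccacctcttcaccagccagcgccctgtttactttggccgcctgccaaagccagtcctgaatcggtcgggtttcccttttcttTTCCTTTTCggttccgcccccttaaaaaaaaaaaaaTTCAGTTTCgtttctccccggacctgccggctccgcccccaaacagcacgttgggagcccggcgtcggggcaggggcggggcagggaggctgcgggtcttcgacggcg
IFI6: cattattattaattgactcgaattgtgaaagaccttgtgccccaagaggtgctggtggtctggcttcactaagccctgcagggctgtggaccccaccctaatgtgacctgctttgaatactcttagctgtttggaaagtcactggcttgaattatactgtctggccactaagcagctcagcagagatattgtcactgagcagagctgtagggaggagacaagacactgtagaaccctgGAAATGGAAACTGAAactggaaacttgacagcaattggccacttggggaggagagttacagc
LGALS3BP: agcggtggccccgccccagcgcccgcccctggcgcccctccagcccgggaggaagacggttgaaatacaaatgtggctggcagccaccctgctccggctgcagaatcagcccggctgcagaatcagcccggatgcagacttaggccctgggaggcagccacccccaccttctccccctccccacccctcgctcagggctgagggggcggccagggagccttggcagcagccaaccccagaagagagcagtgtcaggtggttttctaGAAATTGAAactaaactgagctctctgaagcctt

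Antigen presentation genes rose through class I. Of 23 tested, 8 rose and 1 fell (median 0.44). B2M, the light chain of class I molecules, had 85.9 and 72.2 CPM at day 28, against 6.21 and 6.92 at day 16 (log2 fold change 3.59 ± 0.25, adjusted p = 1.00e-07). The class I heavy chain SLA-2 (chromosome 7, 22916747 to 22959405) had 143 and 114 CPM at day 28, against 5.56 and 5.92 at day 16 (log2 fold change 4.49 ± 0.33, adjusted p = 1.41e-07). SLA-1 had 86.1 and 76.5 CPM at day 28, against 7.74 and 8.18 at day 16 (log2 fold change 3.35 ± 0.29, adjusted p = 5.74e-07). These 2 share sequence, so the split of reads between them is uncertain. NLRC5, an activator of class I genes, had 2.95 and 2.77 CPM at day 28, against 0.1697 and 0.255 at day 16 (log2 fold change 3.73 ± 0.38, adjusted p = 2.36e-06). The proteasome activators PSME1 and PSME2 and the peptide transporter TAP1 were not called (log2 fold changes -0.23, -0.18 and 0.44). Immune cell markers were checked beside these, and their part in the class I rise was not tested. Of 12 tested microglia and macrophage markers, 2 rose and 2 fell, 1 rose without the first day 28 or the second day 16 library, and the sum of the list was 26.99 and 31.2 CPM at day 28, against 6.999 and 5.58 CPM at day 16. The defining markers AIF1 (0 counts at day 28) and TMEM119 (0.139 and 0.102 CPM at day 28, against 0.764 and 0.511 CPM at day 16) fell, and MS4A7 made up most of the day 28 sum (21.4 and 24.6 CPM, against 0 at day 16).

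Glycolysis and hypoxia-responsive genes fell. Of 28 tested, 14 fell and 2 rose (median -1.01), and their summed level was 6200.2 and 5686 CPM at day 28, against 15461 and 13541 CPM at day 16. Enolase 1 (ENO1, chromosome 6, 69385879 to 69401664) had 845 and 734 CPM at day 28, against 3678 and 3062 at day 16 (log2 fold change -2.09 ± 0.23, adjusted p = 4.70e-06). This was the largest fall in mean CPM among called genes, LOC identifiers left out. The glucose transporter SLC2A3 had 454 and 428 CPM at day 28, against 2395 and 2020.4 at day 16 (log2 fold change -2.32 ± 0.26, adjusted p = 5.64e-06). PGK1 had 270.3 and 263 CPM at day 28, against 886 and 801 at day 16 (log2 fold change -1.66 ± 0.17, adjusted p = 2.44e-06). PDK1, which diverts pyruvate from the mitochondria, had 44.6 and 49.6 CPM at day 28, against 227 and 199 at day 16 (log2 fold change -2.18 ± 0.25, adjusted p = 6.87e-06). For these 4 genes the day 28 libraries were the lower pair by a wide margin. EGLN3 and ADM, both known to respond to low oxygen, rose (42.7 and 41.5 CPM at day 28, against 14.3 and 12.1 at day 16, and 12.7 and 11.9 CPM at day 28, against 0.488 and 0.426 at day 16). ALDOA (-0.24 ± 0.18) and LDHB (-0.58 ± 0.12, log2 fold change ± SE) were not called. None of 16 nuclear genes of oxidative phosphorylation was called (median 0.27) and SDHA was the nearest to a call (253 and 232 CPM at day 28, against 133 and 127 at day 16, log2 fold change 0.90 ± 0.10, adjusted p = 5.66e-06). Of the 16, 12 had both day 28 libraries above both at day 16 and 2 had both below. Over all tested genes the shares were 37.7% above and 39.2% below.

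Ribosomal protein genes were lower in all 30 cases, and 18 fell by at least 2-fold (median -1.03). RPL3 had 536 and 486 CPM at day 28, against 1363 and 1318 at day 16 (log2 fold change -1.39 ± 0.11, adjusted p = 2.03e-07). RPS4X had 562 and 540.4 CPM at day 28, against 1179 and 1275 at day 16 (log2 fold change -1.15 ± 0.11, adjusted p = 1.30e-06). RPL10 had 699 and 621 CPM at day 28, against 882 and 903 at day 16 (log2 fold change -0.44 ± 0.13, adjusted p = 0.0107) and was not called. Many of these genes have processed copies that can share reads and are uncertain one by one. The count stood at 10 without the second day 28 library, in which all 30 genes were lower than in the first, and at 14 under DESeq2, and many folds lay close to 2.

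Genes of cholesterol synthesis and uptake fell in part: 9 of 20 fell and none rose (median -0.85). HMGCS1, which starts the pathway, had 179 and 222 CPM at day 28, against 717 and 532 at day 16 (log2 fold change -1.64 ± 0.19, adjusted p = 6.97e-06). The sterol carrier STARD4 had 5.13 and 6.79 CPM at day 28, against 28.4 and 23.8 at day 16 (log2 fold change -2.13 ± 0.21, adjusted p = 2.10e-06). Both genes were lower in both day 28 libraries, and at day 16 the second library was below the first for all 20 genes, by a median of 0.29 on the log2 scale. FDFT1 and MSMO1 were not called (log2 fold changes -0.75 and -0.48).

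Genes tied to the factors in the medium differed by pathway. The day 28 medium contained a cyclic AMP analogue, and of 27 genes known to respond to cyclic AMP or CREB 6 rose and 1 fell (median 0.24). PPARGC1A, a coactivator for mitochondrial genes (chromosome 8, 17841844 to 18527953), had 198 and 199.9 CPM at day 28, against 17.3 and 18.2 at day 16 (log2 fold change 3.49 ± 0.15, adjusted p = 1.95e-09). PDE4D, which degrades cyclic AMP, had 118 and 129 CPM at day 28, against 36.7 and 37.02 at day 16 (log2 fold change 1.74 ± 0.12, adjusted p = 7.02e-08). GADD45B fell (1.11 and 0.917 CPM at day 28, against 3.37 and 3.53 at day 16, log2 fold change -1.77 ± 0.45, adjusted p = 0.00542). PER1 (0.44 ± 0.13) and DUSP4 (-0.84 ± 0.27) were not called. Promoters of the rising gene SIK1 and the falling gene GADD45B are shown because CREB is known to bind the letters TGACG. These were searched on both strands (CGTCA on the other) and are in capitals (SIK1 chr13:206465753-206466052, minus strand, GADD45B chr2:76111409-76111708, minus strand). SIK1 and GADD45B were picked as the called genes of the list with the smallest adjusted p whose promoter held the letters. The letters occurred in 11 of 27 promoters of the list (40.7%), against 25.7% of promoters of all tested genes, and in 20.1% of those of genes that rose.
SIK1: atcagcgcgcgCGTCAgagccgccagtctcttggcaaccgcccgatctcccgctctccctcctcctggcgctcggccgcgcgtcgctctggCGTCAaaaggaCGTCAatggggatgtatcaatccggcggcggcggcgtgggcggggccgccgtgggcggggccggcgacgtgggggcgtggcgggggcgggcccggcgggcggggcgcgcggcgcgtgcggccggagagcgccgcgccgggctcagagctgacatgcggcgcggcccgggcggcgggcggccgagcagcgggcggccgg
GADD45B: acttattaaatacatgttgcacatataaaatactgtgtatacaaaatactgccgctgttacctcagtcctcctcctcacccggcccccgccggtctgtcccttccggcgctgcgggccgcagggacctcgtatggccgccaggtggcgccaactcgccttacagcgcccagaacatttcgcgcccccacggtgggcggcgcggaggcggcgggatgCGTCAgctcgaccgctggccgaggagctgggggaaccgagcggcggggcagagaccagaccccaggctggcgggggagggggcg

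BDNF and GDNF were also in the day 28 medium, and BDNF had been in the medium before day 16 as well. Neurotrophin and GDNF ligands, receptors and partners gave 8 rises and 2 falls of 18 (median 1.21). NTRK2, the BDNF receptor (chromosome 10, 30030050 to 30429938), had 483 and 494 CPM at day 28, against 68.3 and 61.1 at day 16 (log2 fold change 2.92 ± 0.21, adjusted p = 1.33e-07). NTRK3 had 35.1 and 53.5 CPM at day 28, against 6.89 and 7.69 at day 16 (log2 fold change 2.60 ± 0.25, adjusted p = 1.63e-06). GFRA3, a coreceptor of the GDNF family, had 9.13 and 8.54 CPM at day 28, against 0.361 and 0.703 at day 16 (log2 fold change 4.05 ± 0.38, adjusted p = 1.24e-06). All 3 receptors were higher in both day 28 libraries. Without the first day 28 library 1 fall was left, since GFRA1 lost its call.

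CHIR99021 and SHH had left the medium before day 16, and FGF8 was in it until day 16. Of 39 WNT ligands, receptors and targets, 15 fell and 9 rose (median -0.58). The ligand WNT8B (chromosome 14, 111562278 to 111589897) had 3.64 and 6.38 CPM at day 28, against 127 and 123 at day 16 (log2 fold change -4.64 ± 0.40, adjusted p = 9.31e-07), while WNT4 had 33.6 and 33.5 CPM at day 28, against 2.04 and 2.73 at day 16 (log2 fold change 3.82 ± 0.33, adjusted p = 5.34e-07). The receptors split as well: FZD7 fell (44.4 and 46.1 CPM at day 28, against 164 and 158 at day 16, log2 fold change -1.83 ± 0.16, adjusted p = 5.92e-07). FZD1 rose (374 and 341 CPM at day 28, against 77.01 and 82.8 at day 16, log2 fold change 2.16 ± 0.18, adjusted p = 3.14e-07), and so did FZD5 (15.2 and 18.3 CPM at day 28, against 3.39 and 3.26 at day 16, log2 fold change 2.33 ± 0.15, adjusted p = 4.54e-08). The feedback target AXIN2 had 186 and 169 CPM at day 28, against 126 and 141 at day 16 (log2 fold change 0.41 ± 0.13, adjusted p = 0.0170) and was not called. Of 17 hedgehog genes, 4 fell and 2 rose (median 0.14), and 1 rose without the first day 28 or the first day 16 library. The receptor and target PTCH1 had 33.6 and 36.2 CPM at day 28, against 124 and 115 at day 16 (log2 fold change -1.77 ± 0.14, adjusted p = 2.12e-07), and the target GLI1 fell to 0.634 and 0.815 CPM at day 28, against 2.84 and 3.3 CPM at day 16. SHH itself (119.8 and 94.5 CPM at day 28, against 161 and 125 at day 16) and SMO (log2 fold change -0.28) were not called. Of 24 FGF ligands, receptors and targets, 7 fell and none rose (median -0.61), FGFR2 among them (27.2 and 29.96 CPM at day 28, against 81.6 and 77.3 at day 16, log2 fold change -1.47 ± 0.11, adjusted p = 1.11e-07), while FGFR1 and FGFR3 were not called (log2 fold changes 0.24 and 0.23).

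Of 25 genes of BMP, activin and TGF-beta signalling, 7 fell and 4 rose (median 0.25), and 2 rose without the second day 16 library. TGFB3 had 14.6 and 13.5 CPM at day 28, against 3.203 and 2.704 at day 16 (log2 fold change 2.25 ± 0.20, adjusted p = 8.73e-07). BMP2 had 3.31 and 2.303 CPM at day 28, against 0.5302 and 0.66001 at day 16 (log2 fold change 2.23 ± 0.40, adjusted p = 3.65e-04). BMP5 was at least 16.2-fold lower, with no count at day 28, against 0.679 and 1.28 CPM at day 16. The BMP targets ID2, ID3 and ID4 were not called (log2 fold changes 0.65, 0.13 and 0.83).

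Markers of other cell types were checked in the same table. Fibroblast and leptomeningeal markers were the list with the largest median after interferon effectors: 8 of 15 rose and 3 fell (median 1.92). Under DESeq2 with the study's rule, which leaves out genes not counted in every library, the median was -0.27, with 2 rises and 3 falls. Decorin (DCN, chromosome 5, 91678601 to 91713925) had 116 and 101 CPM at day 28, against 3.499 and 5.32 at day 16 (log2 fold change 4.62 ± 0.40, adjusted p = 6.07e-07). TBX18, a mesenchymal transcription factor, had 18.9 and 16.9 CPM at day 28, against 0.361 and 0.255 at day 16 (log2 fold change 5.85 ± 0.42, adjusted p = 2.06e-07). The collagen COL1A2 had 436 and 379.8 CPM at day 28, against 35.9 and 30.4 at day 16 (log2 fold change 3.62 ± 0.34, adjusted p = 1.15e-06). The receptor PDGFRB fell (29.7 and 23.97 CPM at day 28, against 103 and 106 at day 16, log2 fold change -1.96 ± 0.26, adjusted p = 2.48e-05), and PDGFRA was under 1 CPM on both days (0.574 and 0.387 CPM at day 28, against 0.318 and 0.298 at day 16). COL1A1 had 66.3 and 29.6 CPM at day 28, against 32.2 and 27.997 at day 16 (log2 fold change 0.67 ± 0.38, adjusted p = 0.166), with libraries that overlapped. The summed level of the list was 858 and 707 CPM at day 28, against 288 and 303 CPM at day 16, and the part of such cells in the other results was not tested.

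Extracellular matrix and integrin genes moved both ways, with 5 rises and 7 falls of 32 (median -0.16). Integrin beta 5 (ITGB5, chromosome 13, 135468111 to 135587483) had 108 and 93.5 CPM at day 28, against 2.63 and 2.001 at day 16 (log2 fold change 5.44 ± 0.27, adjusted p = 5.17e-09). Versican (VCAN) had 630.4 and 637 CPM at day 28, against 243 and 221 at day 16 (log2 fold change 1.45 ± 0.16, adjusted p = 4.43e-06). SPARC had 1575 and 1365 CPM at day 28, against 605 and 591 at day 16 (log2 fold change 1.30 ± 0.15, adjusted p = 6.06e-06). Of the basement membrane, COL18A1 fell (22.8 and 15.3 CPM at day 28, against 205 and 209 at day 16, log2 fold change -3.44 ± 0.34, adjusted p = 1.69e-06). LAMA1 fell (11.3 and 8.83 CPM at day 28, against 64.5 and 64.1 at day 16, log2 fold change -2.68 ± 0.26, adjusted p = 1.36e-06). The laminin receptor ITGA6 fell (34.96 and 42.01 CPM at day 28, against 149 and 140.4 at day 16, log2 fold change -1.91 ± 0.15, adjusted p = 1.76e-07). Fibronectin (FN1), which was also in the coating, had 1040.5 and 863 CPM at day 28, against 688 and 541 at day 16 (log2 fold change 0.63 ± 0.22, adjusted p = 0.0269) and was not called.

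Of 11 mural cell markers, 1 rose and 5 fell (median -0.90, or -0.82 with members near 0 counts set at their bound), and 2 rose without the first day 28 or the second day 16 library. The summed level of the list was higher, with 426 and 347 CPM at day 28, against 284 and 235 CPM at day 16. MCAM rose (154 and 139 CPM at day 28, against 58.9 and 48.1 at day 16, log2 fold change 1.45 ± 0.16, adjusted p = 4.03e-06) and TAGLN fell (15.8 and 7.81 CPM at day 28, against 48.8 and 38.004 at day 16, log2 fold change -1.88 ± 0.29, adjusted p = 1.13e-04), with -2.48 without the first day 28 library. Of 10 endothelial markers, 3 fell and 1 rose (median -0.29). The rise, PECAM1 (4.54 and 4.18 CPM at day 28, against 1.85 and 1.703 at day 16, log2 fold change 1.29 ± 0.35, adjusted p = 0.00693), was lost without the second day 16 library (adjusted p = 0.0509), and the sum of the list was 18.9 and 15.6 CPM at day 28, against 31.2 and 28.5 CPM at day 16.

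Glial markers were split. Of 13 astrocyte markers, 4 rose and 4 fell (median 0.96), and 2 rose without the second day 28 library. The summed level of the list was lower, with 592 and 565 CPM at day 28, against 679 and 652 CPM at day 16. NDRG2 rose (165 and 153 CPM at day 28, against 64.4 and 68.5 at day 16, log2 fold change 1.26 ± 0.16, adjusted p = 2.14e-05). SOX9 fell (12.5 and 12.1 CPM at day 28, against 51.5 and 54.2 at day 16, log2 fold change -2.10 ± 0.16, adjusted p = 2.16e-07). The gap junction protein GJA1 fell (59.6 and 50.2 CPM at day 28, against 153 and 133 at day 16, log2 fold change -1.38 ± 0.17, adjusted p = 1.18e-05). The defining marker GFAP was low (0.317 and 0.734 CPM at day 28, against 2.69 and 2.001 at day 16) and AQP4 was near 0 (0.238 and 0.285 CPM at day 28, against 0.0424 and 0 at day 16). Of 12 oligodendrocyte lineage markers, 4 fell and 1 rose (median -0.83, or -0.41 with members near 0 counts set at their bound). OLIG2 fell (1.03 and 1.49 CPM at day 28, against 15.1 and 15.8 at day 16, log2 fold change -3.62 ± 0.33, adjusted p = 9.86e-07), and ENPP6, of new oligodendrocytes, rose (17.6 and 16.8 CPM at day 28, against 0.954 and 1.04 at day 16, log2 fold change 4.10 ± 0.31, adjusted p = 1.77e-07).

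Of 12 choroid plexus and ciliated cell markers, 4 rose and 2 fell (median 0.60). The summed level of the list was lower, with 217 and 206 CPM at day 28, against 400 and 392 CPM at day 16. CFAP126, of motile cilia, had 35.6 and 31.7 CPM at day 28, against 13.9 and 15.1 at day 16 (log2 fold change 1.22 ± 0.21, adjusted p = 3.27e-04), and transthyretin (TTR), the defining marker of the choroid plexus, had 0.257 and 0.0815 CPM at day 28, against no count at day 16. Of the 4 rises 2 were left without the first day 28 library or without either day 16 library, and 1 fall was left without the second day 28 or the first day 16 library. Of 12 epithelial markers, 6 fell and 1 rose (median -0.80), and 3 fell without the first day 16 library. KRT19 had 3.55 and 2.28 CPM at day 28, against 16.2 and 14.9 at day 16 (log2 fold change -2.41 ± 0.26, adjusted p = 3.78e-06). CDH1 had 1.43 and 1.28 CPM at day 28, against 4.14 and 6.05 at day 16 (log2 fold change -1.91 ± 0.17, adjusted p = 6.46e-07). EPCAM was at most 0.213 CPM in the 4 libraries.

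The genes with the largest rises, beyond those above, included several that were absent at day 16. COL19A1, a collagen of axons and synapses (chromosome 1, 50044394 to 50402256), had 113 and 123 CPM at day 28, against 0.509 and 0.447 at day 16 (log2 fold change 7.94 ± 0.42, adjusted p = 1.66e-08). IGSF23 had 5.21 and 5.97 CPM at day 28 and no count at day 16, at least 87.7-fold higher, and SLC39A12, a zinc transporter, had 5.23 and 6.38 CPM and no count, at least 91.05-fold higher. The lactate receptor HCAR1 had 13.5 and 10.7 CPM at day 28, against 0.0424 and 0 CPM at day 16, that is 569-fold (95% counting interval 157 to 4701). AIFM3 had 10.002 and 7.54 CPM, against 0.0636 and 0 CPM, that is 276-fold (95% counting interval 94.05 to 1339.7). Both day 28 libraries held these genes and neither day 16 library did beyond 3 counts, COL19A1 excepted. The ranking admitted only genes whose libraries did not overlap, so the separation of their libraries is no separate evidence.

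The largest falls were in genes of several kinds. SALL4, a pluripotency factor (chromosome 17, 53082610 to 53103023), had 0.693 and 0.693 CPM at day 28, against 29.3 and 26.98 at day 16 (log2 fold change -5.34 ± 0.27, adjusted p = 5.67e-09). Alpha-2-macroglobulin (A2M, chromosome 5, 62406928 to 62483690) had 13.6 and 14.2 CPM at day 28, against 525 and 591 at day 16 (log2 fold change -5.33 ± 0.37, adjusted p = 8.89e-08). SYCP2, of the meiotic chromosome axis, had 0.09903 and 0.489 CPM at day 28, against 21.3 and 21.2 at day 16 (log2 fold change -6.17 ± 0.45, adjusted p = 1.19e-07), with day 28 libraries that differed several-fold. The activin subunit INHBE had 0.673 and 0.306 CPM at day 28, against 16.6 and 17.5 at day 16 (log2 fold change -5.11 ± 0.42, adjusted p = 3.34e-07). LEFTY2, an inhibitor of Nodal, had 0.0594 and 0.122 CPM at day 28, against 7.59 and 8.07 at day 16 (log2 fold change -6.39 ± 0.52, adjusted p = 3.52e-07). The midbrain transcription factor DMBX1 had 0 and 0.0815 CPM at day 28, against 6.89 and 4.92 at day 16 (log2 fold change -7.10 ± 0.81, adjusted p = 1.76e-05). SYCP2, INHBE, LEFTY2 and DMBX1 stayed called on leaving out 1 library, but their folds moved: without the second day 28 library the log2 fold change was -7.72 for SYCP2, -6.99 for LEFTY2 and -11.10 for DMBX1, and without the first it was -5.44 for SYCP2, -6.13 for DMBX1 and -5.79 for INHBE.

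In mean CPM the largest rises included DST, which links filaments to microtubules (chromosome 7, 28812423 to 29300149). It had 3889.8 and 3586 CPM at day 28, against 695 and 637 at day 16 (log2 fold change 2.49 ± 0.15, adjusted p = 1.96e-08). The imprinted gene PEG10 had 3908 and 4411 CPM at day 28, against 2029 and 1799.9 at day 16 (log2 fold change 1.12 ± 0.30, adjusted p = 0.00763). The PEG10 call was lost without the second day 28 library (adjusted p = 0.0544) and without the second day 16 library (adjusted p = 0.0676), and under DESeq2 with the same call rule. Clusterin (CLU), a secreted chaperone, had 2277 and 1944 CPM at day 28, against 223 and 212 at day 16 (log2 fold change 3.28 ± 0.15, adjusted p = 3.81e-09). The amyloid precursor APP had 2434 and 2355 CPM at day 28, against 649 and 644 at day 16 (log2 fold change 1.89 ± 0.15, adjusted p = 3.42e-07). The adhesion gene NECTIN3 had 1563 and 1463 CPM at day 28, against 309 and 313 at day 16 (log2 fold change 2.28 ± 0.14, adjusted p = 3.61e-08). Ephrin B3 (EFNB3), a midline guidance ligand (chromosome 12, 52970398 to 52976260), had 1975 and 1694 CPM at day 28, against 138 and 147 at day 16 (log2 fold change 3.69 ± 0.18, adjusted p = 4.19e-09). Apart from PEG10, these rises were far larger than the gap between replicates. The largest falls after ENO1 and SLC2A3 included HNRNPA1, of RNA splicing (808 and 808 CPM at day 28, against 2270.0 and 2214 at day 16, log2 fold change -1.47 ± 0.09, adjusted p = 1.96e-08). The chaperone HSP90AB1 had 1108 and 1157 CPM at day 28, against 2545 and 2475 at day 16 (log2 fold change -1.15 ± 0.09, adjusted p = 3.63e-07). COL5A2 had 170.1 and 144 CPM at day 28, against 1236 and 1153 at day 16 (log2 fold change -2.93 ± 0.19, adjusted p = 5.13e-08). HNRNPA1 has processed copies and is uncertain.

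Over the day course of the IVF line, the largest change of the mitosis sum lay between days 16 and 28, and glutamate receptors were highest at day 28. Mitosis genes summed to 6507 and 6537 CPM at day 0, 4789.6 and 4919 at day 16, 656 and 649 at day 28, and 411 and 375 at day 45. Interferon effectors summed to 405 and 435, 396 and 460.4, 2390.0 and 2227, and 2770.3 and 2389.9 CPM on the same days. Glutamate receptors summed to 265 and 255, 509.8 and 539, 1044 and 1145, and 669 and 803 CPM. Interferon effectors were near their day 0 level at day 16 and stayed several times higher at day 45.

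**Figure D4:**
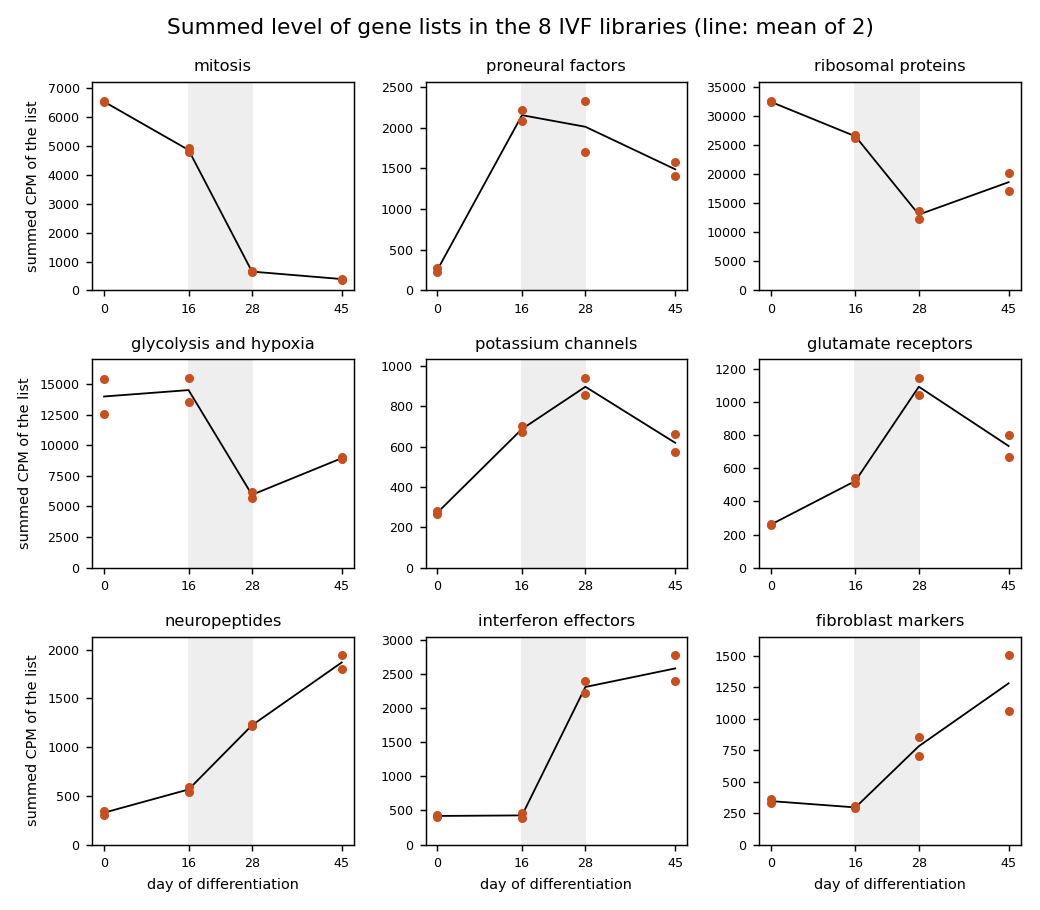
Summed CPM of 9 gene lists (vertical axes) in the 8 IVF libraries at days 0, 16, 28 and 45 (horizontal axes), 1 point per library, with the interval from day 16 to day 28 shaded. Mitosis genes fall to 656 and 649 CPM at day 28, against 4789.6 and 4919 CPM at day 16.

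The same step was measured in PA cells, which share no library with the IVF comparison. In IVF cells 1871 genes rose and 2148 fell, and in PA cells 3385 rose and 3004 fell, 34.5% of those tested. The change between the days differed between the lines for 15.2% of genes: it was higher in IVF cells for 992 genes (5.35%) and lower for 1823 (9.84%), by a test of the difference at an adjusted p below 0.05 and at least 2-fold. The lines differ in embryo type and are 1 line each, so embryo type and line cannot be told apart.

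Neuronal lists differed mostly towards a lower step in IVF cells. It was lower in IVF cells for 25 of 33 potassium channel genes, 22 of 33 vesicle genes, 19 of 23 cytoskeletal genes, 22 of 37 guidance genes and 15 of 21 proneural genes, and higher for 1, 1, 0, 2 and 0 of them. Median log2 fold changes of the day step were 0.54 in IVF cells and 2.63 in PA cells for potassium channels, 0.54 and 2.11 for vesicle genes, and -0.98 and 1.67 for proneural genes. Day 16 levels differed as well: DCX had 471 and 674 CPM at day 28, against 539 and 512 at day 16 in IVF cells and 1695 and 1712 CPM at day 28, against 303 and 270.1 at day 16 in PA cells, so that PA cells started lower and ended higher. KCNJ6 had 20.3 and 28.8 CPM at day 28, against 32.5 and 31.4 at day 16 in IVF cells and 79.5 and 89.8 CPM at day 28, against 6.996 and 6.76 at day 16 in PA cells (difference of the steps -4.00 ± 0.33, adjusted p = 2.67e-06). MAP2 differed likewise (-1.56 ± 0.21, adjusted p = 1.24e-04), with 1945 and 1918 CPM at day 28, against 603 and 585 at day 16 in PA cells.

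The mitosis and ribosomal protein lists gave no called difference, and other groups differed in either direction. None of 32 mitosis genes was called for a difference of its step (medians -2.83 in IVF and -2.85 in PA cells), and the median difference was 0.14 on the log2 scale. None of 30 ribosomal protein genes was called either (median difference 0.44). For interferon effectors the step was higher in IVF cells for 4 and lower for 7 of 33. Epithelial markers fell less in IVF cells, with 4 of 12 higher in the difference. KRT8 had 51.1 and 40.3 CPM at day 28, against 63.9 and 49.6 at day 16 in IVF cells and 12.2 and 10.3 CPM at day 28, against 237 and 216 at day 16 in PA cells (difference 4.02 ± 0.25, adjusted p = 4.09e-07). Fibronectin differed in direction, with 243 and 185 CPM at day 28, against 797 and 602 at day 16 in PA cells (difference 2.34 ± 0.31, adjusted p = 8.56e-05). Of the 20 cholesterol genes 9 fell in IVF cells and none in PA cells, and the step of 9 was lower in IVF cells by the test of the difference. HMGCS1 had 552 and 519 CPM at day 28, against 564 and 442 at day 16 in PA cells (difference -1.73 ± 0.26, adjusted p = 2.43e-04). TH rose in both lines, with 52.7 and 59.9 CPM at day 28, against 16.3 and 15.01 at day 16 in PA cells (difference 0.64 ± 0.20, adjusted p = 0.0330, not called).

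**Figure D5:**
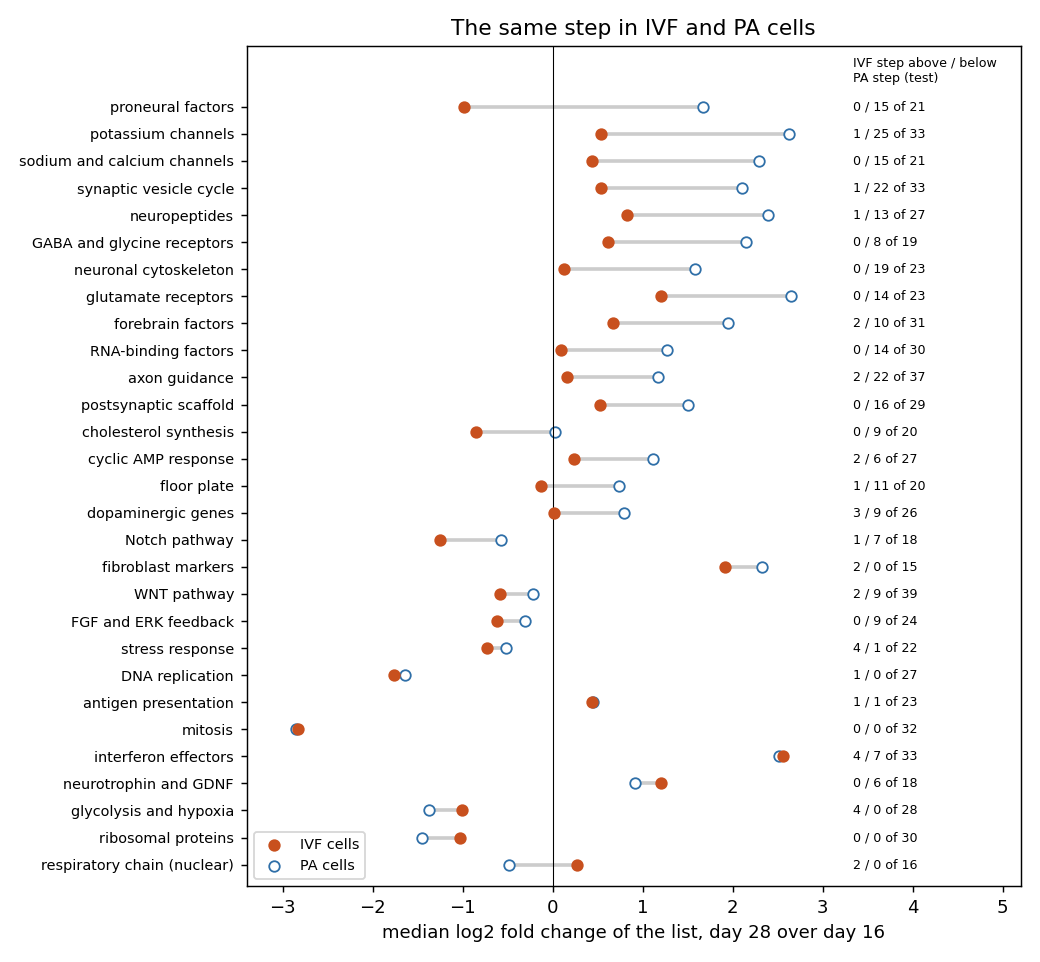
Median log2 fold change of day 28 over day 16 of each gene list in IVF cells and in PA cells (horizontal axis), 1 line of points per list, with the numbers of genes whose step was above or below that of PA cells by the test of the difference. Potassium channels had medians of 0.54 in IVF and 2.63 in PA cells with 25 genes below, and mitosis genes had -2.83 and -2.85 with none.

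The 2 libraries of a group were close but not equal. Pearson's r of log2 CPM across genes, which are not independent replicates, was 0.99699 at day 28 and 0.9975 at day 16. At day 28 the second library was above the first by a median of 0.00 on the log2 scale over all genes, by 0.34 for cytoskeletal genes (21 of 23 genes above) and 0.22 for vesicle genes (28 of 33), and by -0.20 for fibroblast markers (above in 3 of 15), -0.27 for mural markers (1 of 11) and -0.15 for ribosomal proteins (0 of 30). The counts of called genes in the vesicle, potassium channel and glutamate receptor lists changed by 3 genes or fewer on leaving out either day 28 library. In all, between 1659 and 1707 genes rose and between 1896 and 1938 fell when 1 of the 4 libraries was left out.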

How the data were processed

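Poly-A mRNA, purified from total RNA, was sequenced in 16 bulk libraries (8 groups of 2), and 4 of them carry the comparison. Per the methods and the labels, the authors used Trimmomatic 0.38 for trimming, HISAT2 2.1.0 for alignment to the Sscrofa11.1 genome and StringTie 2.1.3b for counts per gene. The strand setting of the counting is not given in the sources used here. Deposited read counts per gene were tested. Deposited FPKM and TPM values, which the authors divided by gene length, were read as a check of the table and not tested. The table held 28232 genes, of which 28208 matched RefSeq. 

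Counts were scaled by TMM and tested with edgeR 4.0.16 (quasi-likelihood F test, all 16 libraries, 8 residual degrees of freedom) after filterByExpr left 18528 genes. Calls needed a change of 2-fold or more and an adjusted p (Benjamini-Hochberg) under 0.05. SE is the log2 fold change divided by the root of F. Promoters were read from the genome with pysam 0.24.0. Python 3.11.15, pandas 2.3.3, matplotlib 3.10.9, R 4.3.3, DESeq2 1.42.0 and limma 3.58.1 were used. Folds of genes without counts in a group were taken against a floor of 3 counts per library, as a ratio with a 95% counting interval where 1 to 3 counts were present, and intervals cover counting error only. The fit was tested on simulated data, where 18165 genes were tested and 2 unchanged ones were called in this comparison.

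Named genes included the 10 largest rises and the 10 largest falls among called genes that averaged 5 CPM or more in 1 of the groups. For these, the libraries of the days could not overlap. The 6 largest in mean CPM and the 4 largest differences between the steps were taken in each direction. Genes with LOC identifiers were left out of these rankings. Up to 4 called members of each list in each direction, up to 3 not called, and the genes the study stained or measured were added. The comparison, the lists and the genes were chosen with earlier results of these data known. Alternatives were other scalings, low-count filters, DESeq2, a replicate block, smaller sets of libraries and leaving out each library. Values of some members are not reported here.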

Additional observations from a re-analysis of the deposited data

Results flagged for a closer look

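Among genes with a mean of 5 CPM or more in a group and steps that did not overlap over the library pairs, 4 in each direction had the largest called differences between the day 28 over day 16 step of IVF cells and that of PA cells, by the edgeR test of the difference over all tested genes. Differences are log2 values, IVF step minus PA step, and their fitted size depends on the prior count where a group had no count. Whether line, embryo type or culture lies behind them cannot be told apart.

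The step was higher in IVF cells for MS4A7, a membrane protein of macrophages, by 8.44: it had 21.4 and 24.6 CPM at day 28, against 0 and 0 at day 16 in IVF cells and 6.22 and 5.66 CPM at day 28, against 0.363 and 0.125 at day 16 in PA cells. PENK, the enkephalin precursor, differed by 7.60, with 12.8 and 16.3 CPM at day 28, against 0 and 0 at day 16 in IVF cells and 3.39 and 2.82 CPM at day 28, against 0.227 and 0 at day 16 in PA cells. SLC39A12, a zinc transporter, differed by 8.01, with 5.23 and 6.38 CPM at day 28, against 0 and 0 at day 16 in IVF cells and 1.99 and 1.66 CPM at day 28, against 0.227 and 0.209 at day 16 in PA cells. In each of these, PA cells held some counts at day 16 and both lines were higher at day 28. TSTD1 differed by 6.52, with 0.198 and 0 CPM at day 28, against 0 and 0 at day 16 in IVF cells and 2.49 and 1.79 CPM at day 28, against 4.91 and 5.47 at day 16 in PA cells. All of its counts at these days in IVF cells were in the first day 28 library, and without it the IVF step was 0.00.

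The step was lower in IVF cells for SST, somatostatin, with a difference of -11.42: it had 0.852 and 0.754 CPM at day 28, against 0.976 and 1.17 at day 16 in IVF cells and 4.86 and 6.21 CPM at day 28, against 0 and 0 at day 16 in PA cells. GAL, galanin, differed by -11.39, with 0.257 and 0.775 CPM at day 28, against 0.509 and 0.596 at day 16 in IVF cells and 7.296 and 6.16 CPM at day 28, against 0 and 0 at day 16 in PA cells. Both peptides were near 1 CPM or less in all IVF libraries and appeared in PA cells only at day 28 of these days. AJAP1, a junction protein, differed by -8.24, with 0.0396 and 0 CPM at day 28, against 1.25 and 1.34 at day 16 in IVF cells and 14.7 and 16.8 CPM at day 28, against 3.11 and 2.82 at day 16 in PA cells, opposite directions in the 2 lines. EXO5, a nuclease, differed by -10.85, with 0.198 and 0.0612 CPM at day 28, against 5.54 and 5.68 at day 16 in IVF cells and 0.0598 and 0.175 CPM at day 28, against 0 and 0 at day 16 in PA cells, where it was near the floor of 3 counts on both days.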

How the results depend on the processing

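Of 15 alternatives for the comparison, other scalings, filters, tools and sets of libraries gave 1401 to 2002 rises and 1708 to 2183 falls, against 1871 and 2148. No called gene had the other sign under any of them, and the share of calls that rose ran from 45.1% to 50.1% (46.6% as reported). Without a minimum change, 4236 genes rose and 4466 fell in IVF cells, 5472 and 5734 in PA cells, the step was above that of PA cells for 2528 genes and below it for 2772, and 351 different list genes rose. Leaving out 1 library gave 1659 to 1707 rises and 1896 to 1938 falls in IVF cells, 3030 to 3190 and 2663 to 2872 in PA cells, 702 to 955 genes with a step above and 1529 to 1848 with a step below that of PA cells, and 210 to 223 list genes that rose and 247 to 264 that fell. Fibroblast markers had a median of -0.27 under DESeq2 with the study's rule, which tests only genes counted in every library, so that fewer members were tested. With the replicate number as a block, 1825 genes rose and 2103 fell. Samples with the same number did not deviate together in the 2 groups compared (r = 0.0516). A low r cannot tell whether they came from a shared culture or batch. Depth limits genes under 3 counts in a library. In simulated counts 44.8% of 2-fold, 97% of 4-fold and 100% of 8-fold changes were recovered. A 2-fold change lies at the minimum of the call itself, which limits its recovery. The changed genes were drawn from those at 1 CPM or more at day 16, so genes of lower level were not covered.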

Other observations

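Insulin-like growth factor and imprinted genes were higher or lower at day 28 one by one. Of 20 tested, 5 rose and 3 fell (median -0.03), and 3 rose without the second day 16 library. IGF1, a growth factor, had 0.475 and 0.713 CPM at day 28, against 19.7 and 15.8 at day 16 (log2 fold change -4.90 ± 0.37, adjusted p = 6.34e-07), and IGF2 had 2.69 and 2.41 CPM at day 28, against 18.3 and 16.1 at day 16 (log2 fold change -2.76 ± 0.18, adjusted p = 4.90e-08). The binding proteins IGFBP5 (95.2 and 80.6 CPM at day 28, against 8.67 and 7.09 at day 16, log2 fold change 3.48 ± 0.35, adjusted p = 2.04e-06) and IGFBP3 (5.76 and 5.18 CPM at day 28, against 0.1697 and 0.1703 at day 16, log2 fold change 4.99 ± 0.47, adjusted p = 1.27e-06) rose, as did the imprinted gene PEG3 (1630.1 and 1548 CPM at day 28, against 463 and 433 at day 16, log2 fold change 1.83 ± 0.20, adjusted p = 7.69e-06). In PA cells, IGF1 had 4.76 and 6.296 CPM at day 28, against 9.404 and 8.497 at day 16, a step that differed from that of IVF cells (-4.20 ± 0.47, adjusted p = 5.14e-05), and PEG3 had 33.3 and 30.3 CPM at day 28, against 6.16 and 3.97 at day 16 (difference -0.83 ± 0.29, adjusted p = 0.0493, not called).

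Of 27 chromatin genes, 9 fell and 2 rose (median -0.75). HMGB2, a DNA-bending protein of cycling cells, had 104 and 95.2 CPM at day 28, against 531 and 611 at day 16 (log2 fold change -2.52 ± 0.23, adjusted p = 9.37e-07), and the DNA methyltransferase DNMT3A had 269 and 254 CPM at day 28, against 116 and 111 at day 16 (log2 fold change 1.21 ± 0.10, adjusted p = 3.31e-07). Of 30 RNA-binding genes of neurons and progenitors, 4 fell and none rose (median 0.09). The falls included IGF2BP3 (53.6 and 60.6 CPM at day 28, against 155 and 160.2 at day 16, log2 fold change -1.46 ± 0.11, adjusted p = 1.57e-07) and LIN28A (0.277 and 0.306 CPM at day 28, against 7.85 and 5.58 at day 16, log2 fold change -4.51 ± 0.38, adjusted p = 4.45e-07), and the splicing regulators PTBP1 and RBFOX2 were not called (log2 fold changes -0.35 and 0.22). Of 23 cadherins, 4 rose and 3 fell (median 0.12). PCDH15 rose (12.02 and 10.7 CPM at day 28, against 1.42 and 1.45 at day 16, log2 fold change 2.98 ± 0.23, adjusted p = 2.35e-07), and CDH2 had 901 and 914 CPM at day 28, against 836 and 783 at day 16 (log2 fold change 0.16 ± 0.13, adjusted p = 0.316). Without the second day 28 library 2 cadherins rose, and without the first day 16 library 1 fell.

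Retinoid genes gave 4 falls and 1 rise of 14 (median 0.00). CRABP1, which binds retinoic acid, had 3.01 and 3.51 CPM at day 28, against 28.5 and 29.5 at day 16 (log2 fold change -3.15 ± 0.21, adjusted p = 4.90e-08), and the 1 rise, CYP26A1, was lost without the first day 16 library (log2 fold change 0.96), while 2 genes rose without the second. Of 22 stress genes, 6 fell and 1 rose (median -0.73). ASNS, of the amino acid response, had 27.01 and 24.9 CPM at day 28, against 231 and 233 at day 16 (log2 fold change -3.16 ± 0.13, adjusted p = 1.69e-09), and the chaperone HSPA5 had 730.1 and 683 CPM at day 28, against 435 and 391 at day 16 (log2 fold change 0.77 ± 0.15, adjusted p = 6.06e-04, not called). The 1 rise, TP53I3, was lost without the first day 28 or the second day 16 library. Of 22 complement, chemokine and acute-phase genes, 8 rose and 5 fell (median 0.69, or 0.33 with members near 0 counts set at their bound). CSF1 rose (19.5 and 14.2 CPM at day 28, against 3.52 and 3.26 at day 16, log2 fold change 2.31 ± 0.30, adjusted p = 2.48e-05) and PTX3 fell (35.3 and 29.3 CPM at day 28, against 302 and 279 at day 16, log2 fold change -3.17 ± 0.23, adjusted p = 1.16e-07). Between 2 and 3 of the 5 falls were left when 1 library was left out.

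Of 13 pluripotency genes, 3 fell and none rose (median -0.00). ESRRB had 1.19 and 1.203 CPM at day 28, against 9.08 and 7.75 at day 16 (log2 fold change -2.81 ± 0.28, adjusted p = 2.16e-06), and NANOG was under 0.2 CPM (0.0792 and 0.0408 CPM at day 28, against 0.1697 and 0.192 at day 16). Of 10 neural crest genes, 2 rose and 1 fell (median 0.24), and 1 rose without the second day 28 or the first day 16 library. SNAI2 fell (0.297 and 0.326 CPM at day 28, against 4.67 and 4.32 at day 16, log2 fold change -3.84 ± 0.35, adjusted p = 8.85e-07). Of 13 mitochondrially encoded mRNAs, 1 rose and none fell (median -0.07). ND3 had 219 and 231 CPM at day 28, against 118 and 106 at day 16 (log2 fold change 1.01 ± 0.16, adjusted p = 1.23e-04) and lost its call without the second day 28 or the second day 16 library. COX1 had 15464 and 16429.8 CPM at day 28, against 14645 and 16285 at day 16 (log2 fold change 0.04 ± 0.18, adjusted p = 0.875, not called).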
